A study of Mus musculus with 1037 samples.

Results

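Notch signalling was examined through 10 genes, the receptors Notch1, Notch2 and Notch3, the ligands Jag1, Jag2 and Dll1, and the target genes Hes1, Hey1, Heyl and Nrarp. They were chosen by name as core parts of the pathway, and each was found by its Ensembl identifier among the 55335 genes of the deposited table. RNA of single cells from mouse back skin had been measured by Smart-seq2, which reads whole transcripts from single cells sorted into wells and uses no molecular identifiers. All mice were wild type and, per the sort scheme of the study, CD1. The outer root sheath (ORS) is the outer epithelial layer of the hair follicle, and its upper region holds the hair follicle stem cells. Cells negative for Sca1 and for CD31, CD117, CD140a and CD45 were gated for CD34 and Itga6. The lower ORS and hair bulb came from a mechanically separated dermal fraction and the upper ORS from an epidermal one.

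At late anagen (AnaVI, postnatal day 15), when the follicle is fully grown, the lower ORS (LOS) and 2 sorts of the upper-middle ORS (MOS and UOS) were taken. At CatVI (day 17), as the follicle regresses, the upper ORS was sorted into plates titled PhagoHFSC or NonPhagoHFSC, which are labels of the study, and alive or apop. Plates 1 and 2 carry PhagoHFSC and alive, plate 5 PhagoHFSC and apop, and plate 6 NonPhagoHFSC and apop. The letter f after the day in these titles is not explained. At CatVII (day 18), late in regression, the upper ORS was sorted as OSalive and OSapop. Living cells were those negative for annexin V, which binds dying cells. The sources used here differ on whether this gate was low or positive for the DNA dye DAPI. The gate for the cells titled apop is not given in the sources used here. The authors left out wells with several cells by a quantitative PCR for Gapdh. For each stage 3 to 6 mice went into 1 pool, and the labels tie no cell to a mouse. Each sort or plate is therefore 1 sample, no test between them was made, and stage, sort and plate cannot be told apart.

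Notch receptors sit in the cell surface and are switched on by ligands of the Jagged and Delta families on a neighbouring cell. Ligand binding allows ADAM proteases and then gamma-secretase to cut the receptor, and the freed intracellular part enters the nucleus, binds the DNA-binding protein Rbpj and switches on genes of the Hes and Hey families, which encode repressors, and Nrarp, which encodes a feedback inhibitor. In the follicle the pathway is known for its part in the fate of the matrix, inner root sheath and suprabasal cells, and in blood vessels Notch3 and Heyl are known from mural cells, the contractile cells of the vessel wall.

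Of 1035 cells of known group, 463 (44.7%) had at least 2000 detected genes, the filter of the study, and were used. They were 39 of 93 LOS cells, 38 of 72 MOS cells, 19 of 88 cells on plate 1, 9 of 73 on plate 2, 15 of 85 on plate 5 and 14 of 69 on plate 6. The larger sorts passed with 83.6% of UOS cells, 80.1% of OSalive cells and 65.2% (92 cells) of OSapop cells. None passed of 67 cells on plate 3 and of 57 on plate 4, both titled NonPhagoHFSC and alive. Counts of annotated genes summed to 441410 on plate 6 at the lowest and to 55537430 in OSalive at the highest, and a single cell held 28.6% of those in LOS. Some well labels belong to 2 cells of the same sort, as in OSalive and OSapop, 99 of them with both cells passing. The labels do not say what sets such cells apart, and no passing cells had identical counts. Levels are CPM of the summed cells of a group, that is counts scaled to 1000000 counts of annotated genes. Their 95% intervals, like those of ratios, cover counting error only. Those of shares cover the number of cells only, and none covers differences between mice. Reads without molecular identifiers can be copies of 1 molecule and cluster by cell, so intervals of levels and ratios can be too narrow. Where such intervals do not overlap, the order of the groups is still only a description of the summed counts.

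The labelled epithelial identity was checked against marker genes. The 7 keratinocyte markers (Krt5, Krt14, Krt17, Trp63, Itga6, Itgb4 and Sox9) had counts in every group, with summed levels from 3409 CPM on plate 2 to 26996 CPM on plate 5. Markers of cells that the gate should have removed were also found. The 6 fibroblast markers summed to 5572 CPM in LOS and 1411 CPM in UOS, against 15.9 to 159.9 CPM in MOS and the CatVI plates and 879.9 to 976.2 CPM in the CatVII sorts. The 6 melanocyte markers summed to 721.7 CPM in LOS and 610.4 CPM on plate 2, and the 6 endothelial markers to 399.0 CPM in LOS and 235.7 CPM on plate 1. Rgs5, a marker of pericytes, had counts in 5 LOS cells, 3 UOS cells and 1 cell on plate 2, and was at 0 in the other groups. Keratins of the inner root sheath, the layer inside the ORS that moulds the hair, divided the AnaVI sorts further. At least 2 of Krt25, Krt27, Krt28 and Krt71 had counts in 20 LOS cells, 20 UOS cells, 4 MOS cells and 1 cell on plate 6, and in no cell of plates 1, 2 and 5, OSalive or OSapop. These cells held 71.3% of all annotated counts in LOS, 31% in UOS and 3.21% in MOS. The main ratios are therefore also given without them. They are called inner root sheath cells below for short, by these keratins alone, and some of them also carried vascular markers. Any count of a keratin was enough, which deep cells reach more easily. Their median depth was 57583 annotated counts in LOS and 146519 in UOS, beside 31124 and 108328 for all cells of these sorts. In MOS it was lower, at 14865 beside 29352.

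Promoter sequence is shown for Hes1 and Nrarp, the targets with counts in the 2nd and the largest number of cells, because their levels went apart between plates. Rbpj, to which the cleaved receptor binds, is known to recognise the core letters TGGGAA. These letters, or TTCCCA on the other strand, were searched in the 250 bases before the start of each canonical transcript (GENCODE vM39, GRCm39), in which overlapping matches were possible and the capitals mark a match. The Hes1 window, chr16:29883877-29884126 on the plus strand, lies in an intron of longer Hes1 transcripts and the Nrarp window, chr2:25070520-25070769 on the plus strand, lies before the gene. Both are printed 5′ to 3′.
Hes1: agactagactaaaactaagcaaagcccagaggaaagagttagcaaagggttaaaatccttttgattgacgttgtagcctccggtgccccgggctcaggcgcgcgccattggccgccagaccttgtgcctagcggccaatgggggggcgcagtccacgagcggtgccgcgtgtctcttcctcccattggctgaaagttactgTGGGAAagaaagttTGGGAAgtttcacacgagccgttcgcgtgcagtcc
Nrarp: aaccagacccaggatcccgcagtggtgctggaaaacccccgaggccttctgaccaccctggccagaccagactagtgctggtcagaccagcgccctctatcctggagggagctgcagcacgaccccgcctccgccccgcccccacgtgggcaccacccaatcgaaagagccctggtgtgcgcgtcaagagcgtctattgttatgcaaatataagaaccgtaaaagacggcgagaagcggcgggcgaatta
Hes1 had 2 matches, at 49 to 44 and at 35 to 30 bases before the start, both on the strand of the gene. The Nrarp window held none. Of the 10 genes, 2 had a match, the other being Hey1 with 1 match on the opposite strand. Among 21770 protein-coding promoters of the same length, 22.7% held at least 1 match and 3.06% at least 2. A match is a string of letters and not evidence of binding in these cells, for which no binding was measured.

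Notch1 was the most widely detected of the 10 genes, with counts in 446 of 463 cells. Its gene (ENSMUSG00000026923.15) lies, in GRCm39 coordinates as for all genes here, on chromosome 2 at 26347915 to 26406675 on the minus strand. Levels were 1582 CPM in LOS, 766.1 CPM in MOS and 651.2 CPM in UOS. On the CatVI plates they were 1504 CPM (plate 1), 498.2 CPM (plate 2), 2304 CPM (plate 5) and 1400 CPM (plate 6), and the CatVII sorts had 1032 CPM (OSalive) and 1048 CPM (OSapop). Plate 5 was highest and plate 2 lowest, and the intervals of LOS and plate 1, of plate 1 and plate 6, and of the CatVII sorts overlapped, so that these neighbours cannot be ordered. The cells of plate 5 ranged from 16.2 to 4391 CPM with a median of 2401 CPM, those of UOS from 0 to 3119 CPM with a median of 277.7 CPM.

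Notch2 (ENSMUSG00000027878.11), on chromosome 3 at 97920800 to 98057677 on the plus strand, varied least among the receptors. Levels were 317.9 CPM in LOS, 173.3 CPM in MOS and 238.3 CPM in UOS. On the plates they were 159.03 CPM (plate 1), 373.6 CPM (plate 2), 234.3 CPM (plate 5) and 165.4 CPM (plate 6), and in CatVII 310.8 CPM in OSalive and 295.98 CPM in OSapop. The highest of 9 levels was on plate 2 and the lowest on plate 1, both titled PhagoHFSC and alive, so the spread between plates of 1 label spanned the whole range. MOS, plate 6 and plate 1 overlapped in their intervals, as did plate 2 with LOS and LOS with OSalive.

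Notch3 (ENSMUSG00000038146.8), on chromosome 17 at 32339794 to 32385893 on the minus strand, had counts in only 85 cells and the widest range of the receptors. Levels were 705.8 CPM in LOS, 11.2 CPM in MOS and 42.7 CPM in UOS. The CatVI plates had 222.1 CPM (plate 1), 90.7 CPM (plate 2), 582.3 CPM (plate 5) and 156.3 CPM (plate 6). The CatVII sorts had 7.11 CPM (OSalive) and 27 CPM (OSapop). LOS and all CatVI plates were thus above MOS, UOS and the CatVII sorts, and in the order of levels only the intervals of MOS and OSalive overlapped among neighbours.

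Compared per length of the canonical transcript, Notch1 was the highest receptor in each stage. In LOS, Notch1 was at 166.8 CPM per kb, Notch2 at 30.1 and Notch3 at 87.3. In the AnaVI upper-middle ORS, MOS and UOS summed, Notch1 was at 69.8 CPM per kb, Notch2 at 22 and Notch3 at 4.90. In CatVI the levels were 164.6, 21 and 37.5 CPM per kb, with Notch3 above Notch2. In CatVII Notch1 was at 109.1, Notch2 at 29.1 and Notch3 at 1.42 CPM per kb.

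**Figure D1:**
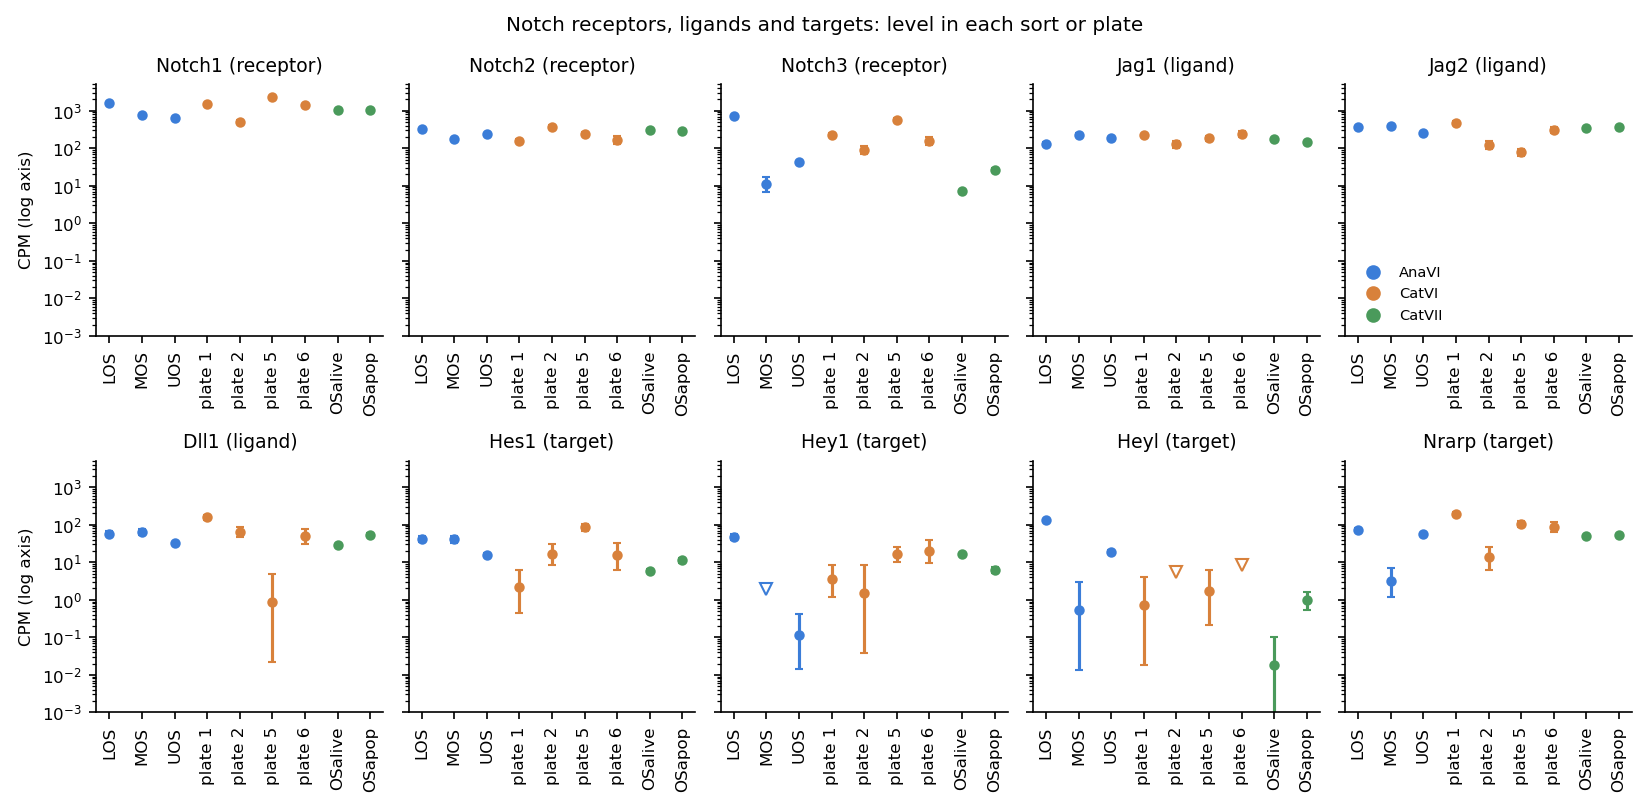
Level of each of the 10 genes (CPM of the summed cells, log axis) in each of 9 sorts and plates, coloured by stage, with 95% counting intervals, and open triangles at the upper limit where a group had 0 counts. Notch1, Notch2, Jag1 and Jag2 stay between 77.5 and 2304 CPM in every group, while Notch3 runs from 7.11 to 705.8 CPM and Heyl from 0 to 131.4 CPM.

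Jag2, the most abundant of the 3 ligands per length in each pool, had counts in 423 cells. Its gene (ENSMUSG00000002799.6) lies on chromosome 12 at 112871421 to 112893437 on the minus strand. Levels were 376.4 CPM in LOS, 390.5 CPM in MOS, 258.7 CPM in UOS, 483.5 CPM on plate 1, 77.5 CPM on plate 5, 308.1 CPM on plate 6, 345.7 CPM in OSalive and 373.7 CPM in OSapop. Plate 2 had 80 counts among 650395. Plates 2 and 5 stood below all other groups, whereas plate 1 stood above them. MOS, LOS and OSapop could not be ordered by their intervals. Per length, Jag2 was at 52.6 CPM per kb in the upper-middle ORS and 52.3 in CatVI, against 34.2 and 34 for Jag1.

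Jag1 (ENSMUSG00000027276.7), the other Jagged ligand, lies on chromosome 2 at 136923373 to 136958693 on the minus strand and had the narrowest range of the 10 genes, from 128.1 CPM in LOS to 242.4 CPM on plate 6. In between were 129.2 CPM on plate 2, 149.3 CPM in OSapop, 176.6 CPM in OSalive, 184.1 CPM on plate 5, 192.8 CPM in UOS, 219.9 CPM on plate 1 and 228.96 CPM in MOS. Only OSalive and OSapop were neighbours in this order whose intervals did not overlap.

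Dll1 (ENSMUSG00000014773.13), a Delta ligand on chromosome 17 at 15587276 to 15597134 on the minus strand, was low and depended on the plate. Levels were 58.1 CPM in LOS, 62.6 CPM in MOS, 32.6 CPM in UOS, 156.2 CPM on plate 1, 64.6 CPM on plate 2, 0.881 CPM (1 count) on plate 5, 49.8 CPM on plate 6, 28.6 CPM in OSalive and 54.9 CPM in OSapop. Plate 1 was above and plate 5 below all others, and on plate 2 a single cell held 85.7% of the counts. Fam120b, a protein-coding gene with 11347 counts over the 463 cells, overlaps Dll1 on the other strand. Smart-seq2 marks no strand, so reads in the overlap cannot be assigned with certainty.

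Among the targets, Nrarp (ENSMUSG00000078202.3), on chromosome 2 at 25070770 to 25073351 on the plus strand, had counts in the most cells. Levels were 72.9 CPM in LOS, 3.21 CPM in MOS and 57.9 CPM in UOS. On the plates they were 193.4 CPM (plate 1), 13.8 CPM (plate 2), 105.7 CPM (plate 5) and 88.4 CPM (plate 6), and in CatVII 48.7 CPM in OSalive and 54.1 CPM in OSapop. Plate 1 was highest and MOS lowest. The intervals of MOS and plate 2 overlapped, as did those of plates 5 and 6, of plate 6 and LOS, and of neighbours among UOS, OSapop and OSalive. The antisense transcripts Gm38287 and Gm13387, with 1385 and 171 counts, overlap Nrarp, so part of its counts is uncertain.

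Hes1 (ENSMUSG00000022528.8), on chromosome 16 at 29882134 to 29886643 on the plus strand, encodes a repressor of differentiation genes. Levels were 42.6 CPM in LOS, 41.2 CPM in MOS, 16.1 CPM in UOS, 2.15 CPM (3 counts) on plate 1, 16.9 CPM on plate 2, 84.6 CPM on plate 5, 15.9 CPM on plate 6, 5.82 CPM in OSalive and 11.4 CPM in OSapop. The order of plates 1 and 5 was opposite to that of Dll1. Plate 2, UOS and plate 6 were alike within their intervals, and so were LOS and MOS.

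Hey1 and Heyl, related repressors known from vascular cells, were rare. Hey1 (ENSMUSG00000040289.8), on chromosome 3 at 8726956 to 8732385 on the minus strand, had counts in 36 cells and Heyl (ENSMUSG00000032744.4), on chromosome 4 at 123127349 to 123143682 on the plus strand, in 22 cells. Hey1 was at 46.6 CPM in LOS, 0 in MOS and 0.117 CPM in UOS. It was at 3.58 CPM on plate 1, 1.54 CPM on plate 2, 16.7 CPM on plate 5, 20.4 CPM on plate 6, 16.4 CPM in OSalive and 6.33 CPM in OSapop. On each CatVI plate its counts came from 1 cell, whereas 13 OSalive cells and 13 OSapop cells had counts. LOS was highest, and plates 5 and 6 and OSalive could not be ordered. Heyl was at 131.4 CPM in LOS, 0.535 CPM (1 count) in MOS and 18.5 CPM in UOS. In the later groups it was at 0.716 CPM on plate 1, 0 on plates 2 and 6, 1.76 CPM on plate 5, 0.0180 CPM in OSalive and 0.969 CPM in OSapop. Heyl was therefore found almost wholly in LOS and UOS, and 0 counts on plates 2 and 6 set upper limits of 5.67 and 8.36 CPM.

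The comparison of the lower with the upper-middle ORS at AnaVI asked how the pathway differed along the growing follicle. The sorts also differed in cell make-up. The 7 keratinocyte markers summed to 6080 CPM in LOS, 19995 CPM in MOS and 13664 CPM in UOS. Of these markers, 5 were at least 2-fold lower in LOS. At least 2 of the 6 fibroblast markers had counts in 24 of 39 LOS cells, 0 of 38 MOS cells and 14 UOS cells. The part of this in the ratios was not tested, so the ratios cannot be read as position along the ORS alone. Of the 10 genes, 5 were at least 2-fold higher in LOS and none was 2-fold lower. Over all 11603 genes with at least 100 counts in both groups together, 13.7% were higher and 14.5% lower by 2-fold. The median log2 ratio was 0.95 for the 10 genes and 0.02 for all genes.

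Notch1 was higher in LOS by a log2 ratio of 1.26 (95% interval 1.21 to 1.31), from 1582 CPM against 662.5 CPM. Notch3 was higher by 4.15 (4.03 to 4.28), from 705.8 against 39.6 CPM. For Hes1 the ratio was 1.20 (0.88 to 1.51), from 42.6 against 18.5 CPM. Among the targets, Heyl was higher by 2.97 (2.75 to 3.20), from 131.4 against 16.7 CPM. Hey1 was at 46.6 against 0.105 CPM, where it had 2 counts, a ratio of 8.79 (6.91 to 11.85), and it reached the count minimum only through LOS. The ligands were within 2-fold, at 0.47 for Jag2, 0.71 for Dll1 and -0.62 for Jag1, which was the only member with a lower level in LOS. With TMM scaling Notch1 (0.98) and Hes1 (0.93) fell short of 2-fold, and against MOS alone Hes1 was level (0.05).

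Much of this rested on few cells. The deepest LOS cell, with 771989 annotated counts, held 1602 of 1907 Notch3 counts (84%), 96.8% of the Hey1 counts, 55.5% of the Heyl counts and 28.3% of the Notch1 counts. The same cell had 2230 counts of Rgs5 and counts of all 6 endothelial markers. It had counts of all 6 mural markers searched in single cells, which include Rgs5 but not Cspg4. Beside inner root sheath keratins, it had 664 counts of Krt5 but none of Krt14. Its vascular markers go against the sorted cell type. Without the 5 cells with Rgs5, LOS was at 1700 CPM for Notch1, 84.1 CPM for Notch3, 85.2 CPM for Heyl, 2.26 CPM for Hey1, 44.6 CPM for Hes1 and 68.8 CPM for Nrarp. With such cells left out of both regions, Notch3 was still higher in LOS, by 1.97, and Notch1 by 1.51, also a choice made after seeing the data.

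The cells with inner root sheath keratins, the deepest LOS cell among them, held more than their share of the counts of Notch1, Notch3, Heyl and Nrarp. In LOS they had 85.1% of the Notch1 counts, 98% of Notch3, 92.7% of Heyl, 91.9% of Nrarp and all counts of Hey1, beside 71.3% of all counts. In UOS they were 20 cells with 31% of all counts, and held 317 of 317 Heyl counts, 637 of 732 Notch3 counts (87%), 737 of 991 Nrarp counts (74.4%) and 6457 of 11153 Notch1 counts (57.9%). The Jagged ligands showed the reverse there, with 21% of the Jag1 and 14.9% of the Jag2 counts. Within UOS, Notch1 was at 1217 CPM in these cells and 397.3 CPM in the others, Nrarp at 138.9 and 21.5 CPM, and Jag2 at 124.4 and 318.9 CPM. These are descriptions of cells picked by their keratins within 1 sort, and no test was made.

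With the cells that had inner root sheath keratins left out of both regions, a choice made after seeing the data, 3 of the 8 genes that kept enough counts were at least 2-fold higher in LOS, beside 14.6% of all genes in the same cells. These were Notch3 (2.59), Dll1 (1.52) and Hes1 (1.54), while Notch1 was at 0.91 and Nrarp at 0.12. The 3 higher ratios rest on few LOS cells and are given without an interval. The cells left out were 10 of the 13 LOS cells with Notch3, 12 of the 15 with Hes1 and 7 of the 15 with Dll1. Hey1 and Heyl no longer reached the count minimum, with no Heyl counts in the UOS cells and no Hey1 counts in the LOS cells. The level of Dll1 in LOS without these cells was 116.02 CPM, against 34.8 CPM in them.

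MOS and UOS are both labelled upper-middle ORS, and their comparison shows how far 2 sorts of 1 region and stage differed. Of 9 genes with enough counts, 1 was at least 2-fold higher in MOS and 3 were lower, while over all 11059 genes 9.38% were higher and 18.9% lower. Hes1 was higher, by 1.36 (0.98 to 1.73). Notch3 was lower, at -1.93 (-2.63 to -1.30), as were Nrarp, with 6 counts against 991 and a ratio of -4.17 (-5.62 to -3.04), and Heyl, with 1 count against 317 and a ratio of -5.11 (-10.42 to -2.62). Without the cells with inner root sheath keratins the ratio of Notch3 was 0.14 and that of Nrarp -3.28, so that Notch3 was close to level between the sorts in the remaining cells. Notch1 (0.23), Jag1 (0.25), Jag2 (0.59), Notch2 (-0.46) and Dll1 (0.94) were within 2-fold. Differences of this size between sorts of 1 stage set the scale against which the comparisons between stages must be read.

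CatVI was compared with the AnaVI upper-middle ORS to follow the pathway into regression. The 2 pools also differed in Cd34 and other bulge markers, as given above, and the part of this in the ratios was not tested. Of 9 genes with enough counts, 4 were at least 2-fold higher in CatVI (Notch1, Notch3, Dll1 and Nrarp) and 1 was lower (Heyl), beside 12% higher and 25.9% lower of all 11632 genes. The median log2 ratio was 0.80 for these genes and -0.23 for all genes. The highest ratio was that of Notch3, at 2.94 (2.80 to 3.07), with 303.4 against 39.6 CPM.

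Notch3 was the only member whose level on every CatVI plate lay above both MOS and UOS, which held for 4.75% of all genes tested. No member lay below both on every plate, as 20.3% of all genes did. Against MOS and UOS summed, the log2 ratio was 2.49 on plate 1, 1.19 on plate 2, 3.88 on plate 5 and 1.98 on plate 6. More cells had Notch3. Counts were found in 11 of 19 cells on plate 1, 3 of 9 on plate 2, 13 of 15 on plate 5 and 8 of 14 on plate 6, against 3 of 38 MOS cells and 11 UOS cells (9.82%). With each cell thinned to 10000 annotated counts, the share was 47.3% (33.7 to 61.2) of 55 CatVI cells and 6.80% (3.31 to 12.2) of upper-middle cells, where the unthinned shares were 61.4% and 9.33%.

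The Notch3-positive cells of CatVI carried keratinocyte markers. They were searched for 6 mural markers (Rgs5, Pdgfrb, Acta2, Tagln, Myh11 and Des, without Cspg4) and 6 endothelial ones. None of the 35 Notch3-positive cells had counts of 2 or more of either set, and Rgs5 was at 0 in all of them. Krt5 had counts in 11 of 11, 1 of 3, 13 of 13 and 8 of 8 on plates 1, 2, 5 and 6. With Cspg4 added, 2 cells on plate 1, 1 on plate 2, 2 on plate 5 and 0 on plate 6 had at least 2 mural markers. Whether these cells had Notch3 was not examined. On plate 2 a single cell held 78% of the Notch3 counts. The 7 mural markers, Rgs5 and Cspg4 included, summed to 167.4 to 618.1 CPM on the CatVI plates and to 426.4 and 539.5 CPM in MOS and UOS. In LOS they summed to 1973 CPM, and in OSalive and OSapop, where Rgs5 was at 0, to 1042 and 1274 CPM. Of the inner root sheath cells named above, 1 was on plate 6 and held 4 of its 69 Notch3 counts. In LOS, by contrast, 6 of 13 Notch3-positive cells had at least 2 of the 6 mural markers without Cspg4, and 2 had at least 2 endothelial ones. In UOS 5 of 11 and 3 of 11 did. With the inner root sheath cells left out of all groups the CatVI ratio of Notch3 was 5.24, and without cells with Rgs5 it was 3.89.

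**Figure D2:**
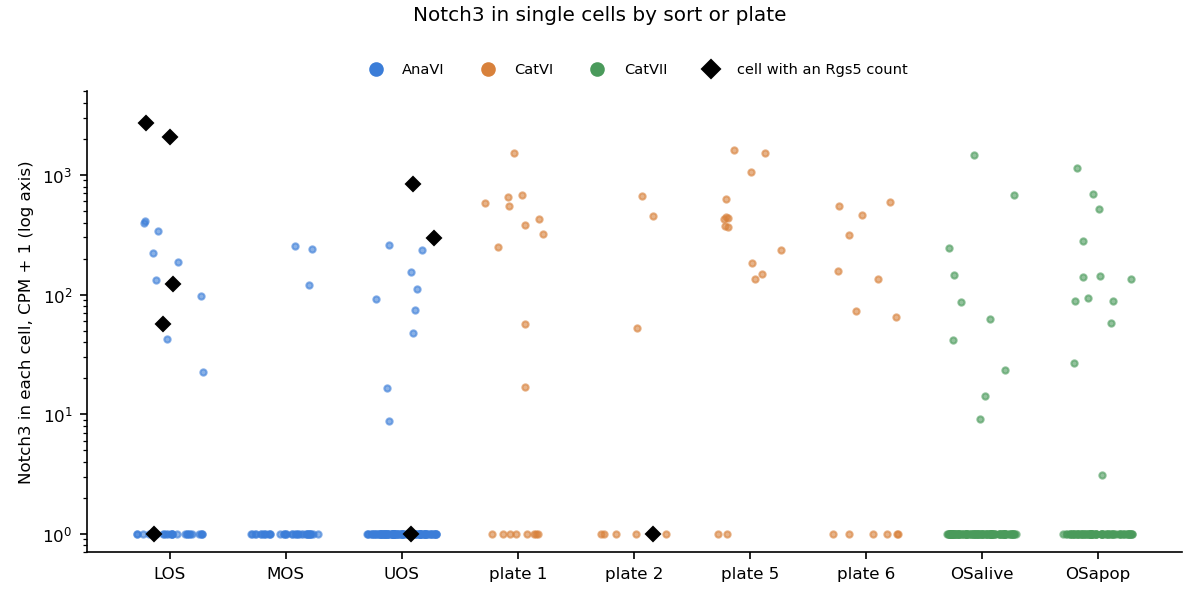
Notch3 in every passing cell (CPM of the cell + 1, log axis) by sort or plate, coloured by stage, with black diamonds for cells with counts of Rgs5. On plate 5, 13 of 15 cells lie above 0, while in OSalive 8% of cells do, and the 2 highest LOS cells are diamonds.

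Notch1 was higher in CatVI by 1.24 (1.19 to 1.28), at 1561 against 662.5 CPM, on 3 of 4 plates. Its ratio was 1.18 on plate 1, 1.80 on plate 5 and 1.08 on plate 6, and -0.41 on plate 2, which has only 9 cells, and without plate 5 the summed ratio was 0.88. It was 1.85 without the cells with inner root sheath keratins. Nrarp followed the same plates, with 1.88 on plate 1, 1.01 on plate 5, 0.75 on plate 6 and -1.92 on plate 2, and 1.20 (1.04 to 1.37) when summed, or 0.52 without plate 1. In UOS, cells with inner root sheath keratins held 74.4% of the Nrarp counts, and without such cells the summed ratio was 2.70.

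The ligands and Hes1 split the plates. Dll1 was higher in CatVI by 1.13 (0.93 to 1.34), but without plate 1 the ratio was -0.29, and without the cells with inner root sheath keratins it was 0.98. The sums of Jag2 (-0.01) and Jag1 (-0.01) were level. Behind the sum, Jag2 had ratios of 0.83 on plate 1, 0.18 on plate 6, -1.14 on plate 2 and -1.81 on plate 5. Plate 5, titled PhagoHFSC and apop, thus combined the highest Notch1, Hes1 and, of the CatVI plates, Notch3 levels with the lowest Jag2 and Dll1 levels. The ratio of Hes1 was 0.80 (0.49 to 1.11) when summed and 2.19 on plate 5, and without plate 5 it was -1.13. Without the cells with inner root sheath keratins it was 1.07. Heyl, with 3 counts in CatVI, was lower, at -4.34 (-6.62 to -2.78), and its 318 counts in AnaVI came from few cells, as above.

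CatVII was compared with the AnaVI upper-middle ORS in the same way. Of the 10 genes, 1 was at least 2-fold higher (Hey1) and 3 were lower (Notch3, Hes1 and Heyl), and of all 14621 genes 16.3% were higher and 17.4% lower. The median log2 ratio was -0.06 for the 10 genes and 0.06 for all genes. Both CatVII sorts lay above MOS and UOS for Notch1, Notch2 and Hey1, and below them for Jag1 and Hes1. Such a separation of 2 sorts from 2 sorts held for 27.5% of all genes upwards and 23.3% downwards, so 3 and 2 of 10 genes is near the background.

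Hes1 was lower in CatVII, at -1.40 (-1.60 to -1.20), at 7.03 against 18.5 CPM, and at -1.67 in OSalive and -0.71 in OSapop. The thinned share of cells with Hes1 was 3.81% (1.66 to 7.37) in CatVII and 8.84% (4.79 to 14.6) in the upper-middle ORS, intervals that overlap, where the unthinned shares were 11.5% and 28%. Hey1 was higher by 7.07 (5.22 to 10.12), with 1008 counts in 26 CatVII cells against 2 counts in 150 upper-middle cells. Hey1 reached the count minimum only through CatVII. Notch1 was higher by 0.64 (0.62 to 0.67) and Notch2 by 0.41, both under 2-fold. Without the cells with inner root sheath keratins Notch1 was past 2-fold, at 1.24, and Notch2 was at 0.68, while Hes1 was at -1.15. With those cells left out, 3 of 9 members were at least 2-fold higher in CatVII (Notch1, Hey1 and Nrarp), beside 19.9% of all genes.

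Notch3 was lower in CatVII, at -1.79 (-1.94 to -1.65), at 11.4 against 39.6 CPM, but this turned with the cells counted. It was 0.49 without the cells with inner root sheath keratins, 0.03 without UOS, 0.64 when each cell weighed the same and 0.26 after thinning. The thinned share of cells with Notch3 was 7.14% (4.05 to 11.5) in CatVII and 6.80% in the upper-middle ORS. Heyl was lower, at -6.22 (-7.04 to -5.49), and all but 1 of the 318 counts that set its AnaVI level came from UOS cells with inner root sheath keratins. Nrarp was at -0.07 (-0.17 to 0.03) with all cells and at 1.4 without those cells.

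OSapop and OSalive are the sorts of CatVII titled as apoptotic and living. Of 9 genes with enough counts, 1 was at least 2-fold higher in OSapop (Notch3) and 1 lower (Hey1), and of all 13806 genes 8.60% were higher and 13% lower. Notch3 was higher by 1.92 (1.72 to 2.13), at 27 against 7.11 CPM, with counts in 13 OSapop cells (14.1%) and 10 OSalive cells (8%), and a single OSapop cell held 55.7% of its counts there. When each cell weighed the same, Notch3 (0.73) and Hey1 (-0.19) were both within 2-fold, as they were after thinning (0.36 and -0.64). Hey1 was lower, at -1.37 (-1.69 to -1.07), though 13 cells of each sort had counts.

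The main receptors and the Jagged ligands differed by less than 2-fold between these sorts. Notch1 was at 0.02 (-0.00 to 0.05), Notch2 at -0.07, Jag2 at 0.11 and Jag1 at -0.24, and Nrarp was at 0.15. Dll1 at 0.94 (0.82 to 1.06) and Hes1 at 0.97 (0.69 to 1.24) were under 2-fold. Hes1 ranged from 0.21 when each cell weighed the same to 2.11 after thinning, and with all counts of genes as the total Dll1 (1.07) and Hes1 (1.10) were past 2-fold. The sorts also differed in depth, with medians of 415779 annotated counts per OSalive cell and 91167 per OSapop cell, and in the 11 stress genes induced by dissociation, which summed to 7067 and 3890 CPM. The part of either in these ratios was not tested.

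**Figure D3:**
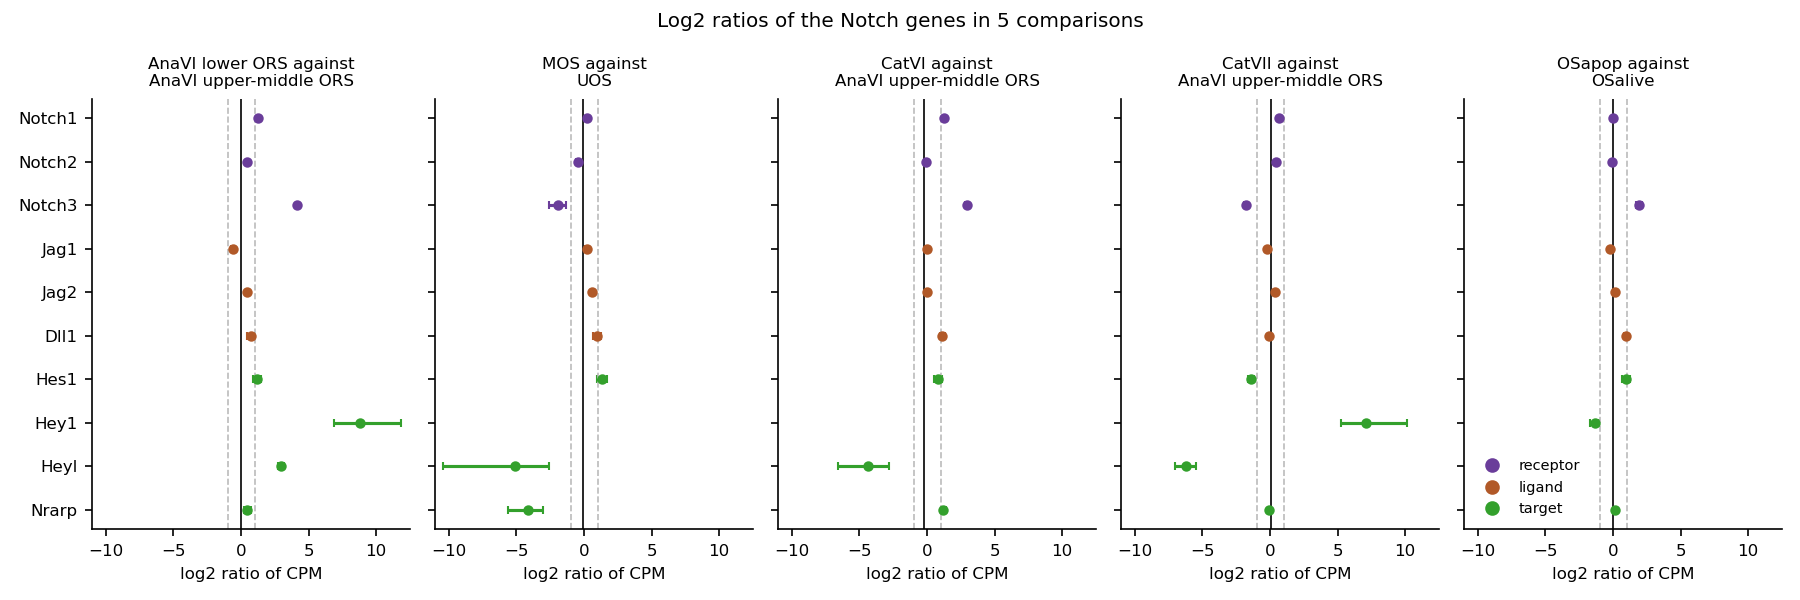
Log2 ratio of CPM for each gene in 5 comparisons, with 95% counting intervals, dashed lines at 2-fold and a black line at the median of all genes tested. Receptors are purple, ligands brown and targets green, and genes under 100 counts over both groups have no point. Among the ligands only Dll1 in CatVI, at 1.13, lies past a dashed line, whereas Notch3 lies at 4.15, -1.93, 2.94, -1.79 and 1.92.

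Receptor and ligand were often found in the same cell. After thinning, which left out 13 LOS, 3 upper-middle, 2 CatVI and 7 CatVII cells under that depth, counts of at least 1 receptor and at least 1 ligand were found in 92.3% of LOS cells, 83% (75.9 to 88.7) of upper-middle cells, 63.6% (49.6 to 76.2) of CatVI cells and 94.3% (90.2 to 97) of CatVII cells. Unthinned, these shares were 89.7%, 96.7%, 84.2% and 99.5%. The pool of CatVI was lowest on both scales, but its plates differed. The thinned share was 77.8% on plate 1, 33.3% on plate 2, 53.3% on plate 5 and 76.9% on plate 6, and the unthinned share 84.2%, 55.6%, 93.3% and 92.9%, so that unthinned plates 5 and 6 were above LOS. Notch1 and Jag2 occurred together in 65.3% of upper-middle, 43.6% of CatVI and 81.4% of CatVII cells after thinning, and in 91.3%, 57.9% and 95.9% before. On plate 5 they did so in 3 of 15 thinned cells (20%) and in 9 of 15 unthinned ones.

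At least 1 of the 4 targets was found, after thinning, in 46.2% (26.6 to 66.6) of LOS cells, 23.1% (16.6 to 30.8) of upper-middle cells, 52.7% (38.8 to 66.3) of CatVI cells and 30.5% (24.3 to 37.2) of CatVII cells. The unthinned shares were 48.7%, 43.3%, 63.2% and 50.7%. The CatVI share was the highest of these pools. The intervals treat cells of 1 pool of mice as independent, so they cannot compare stages. Plate 2 by itself lay below both the upper-middle ORS and CatVII. Among the CatVI plates the thinned share with a target was 55.6% on plate 1, 22.2% on plate 2, 66.7% on plate 5 and 53.8% on plate 6. The unthinned share was 73.7%, 33.3%, 80% and 50%. Nrarp had counts in 38.2% of CatVI and 14.3% of upper-middle cells after thinning and in 49.1% and 26.7% before. Jag2 had counts in 49.1% and 78.9% after and in 59.6% and 96.7% before.

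**Figure D4:**
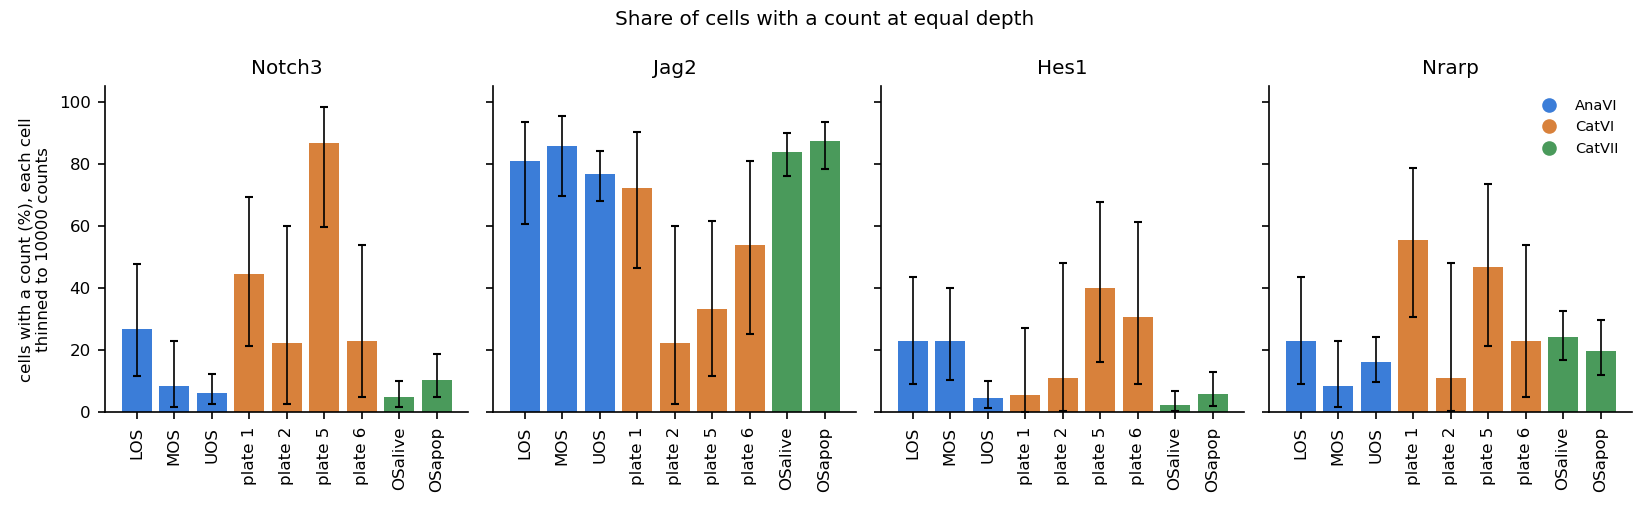
Share of cells with a count of Notch3, Jag2, Hes1 and Nrarp in each sort or plate (bars from 0, exact 95% binomial intervals), each cell thinned to 10000 annotated counts. Plate 5 has Notch3 in 86.7% and Jag2 in 33.3% of cells, and OSalive has 4.84% and 83.9%.

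The rest of the pathway was followed in a list of 60 genes. In LOS against the upper-middle ORS, 7 of 49 with enough counts were at least 2-fold higher and 9 lower, beside 13.7% and 14.5% of all genes, with a median log2 ratio of -0.02 beside 0.02 for all genes. In MOS against UOS 5 of 48 were higher and 3 lower, beside 9.38% and 18.9% of all genes. In CatVI the numbers were 3 and 8 of 48, beside 12% and 25.9%. In CatVII they were 6 and 3 of 50, beside 16.3% and 17.4%, and in OSapop against OSalive 1 and 3 of 50, beside 8.60% and 13%. In each of these 4 comparisons except for the higher genes of MOS, the share of the list lay below that of all genes. Median log2 ratios of the list were 0.28, -0.08, 0.35 and 0.02 in these comparisons, beside -0.11, -0.23, 0.06 and -0.01 for all genes.

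The extremes of the list in LOS were Notch4, a receptor of endothelial cells, at 5.81, and Dtx4, of the Deltex family of ubiquitin ligases, at 2.47, with Dtx3l at -3.08 and the gamma-secretase subunit Aph1c at -2.32. Of the 120 Notch4 counts in LOS, 99.2% were in 1 cell with Rgs5. In MOS against UOS the extremes were the membrane protein Dlk2 (3.15), which resembles Delta ligands, and the gamma-secretase subunit Psen2 (1.82), and Dtx3l (-3.09) and Aph1c (-2.93), the latter at 0 counts in MOS and set to 3. A single cell held 93.5% of the 62 Psen2 counts in MOS, and in LOS 65.3% of the Dtx4 counts.

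In CatVI the co-repressor Tle2 (1.44) and Dtx2 (1.20) were highest, and Neurl1b (-1.94), which helps ligands to be taken up, and Dlk2 (-1.87) lowest. In CatVII Dlk1, a non-canonical ligand, was highest at 5.65 (4.73 to 6.79). With 1 count in MOS and 8 in UOS, it reached the count minimum only through CatVII. Dlk1 was at 0.474 CPM in the upper-middle ORS, 24.2 CPM in OSalive and 22.5 CPM in OSapop, with counts in 20 and 12 cells of the CatVII sorts. Tle2 followed at 1.77, and the histone acetyltransferase Kat2b (-1.46) and the deacetylase Hdac2 (-1.07) were lowest. In OSapop against OSalive the extremes were Dtx4 (2.68) and Pofut1 (0.72), which adds fucose to Notch, and Notch4 (-3.77) and Aph1c (-2.77), where Notch4 had 2 counts in OSapop. The 98 Notch4 counts of OSalive came from 2 cells, 79.6% of them from 1 cell.

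Rbpj itself, named here after its values were seen, was within 2-fold in every comparison but one. It was at 37 CPM in LOS against 88.7 CPM in the upper-middle ORS (-1.26). In CatVI the ratio was -0.81, in CatVII 0.64, and in OSapop against OSalive -0.50.

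Over the 9 groups, the genes whose log2(CPM + 1) ran most like that of a member were found by Pearson's r among 9440 genes with counts in at least 75 cells. Notch3 was most like Smad3 (r = 0.94) and Spire1 (0.91), Notch1 most like Snrnp70 (0.94) and Panx1 (0.93), and Notch2 most like Samd8 (0.95). Among the ligands, Jag1 was nearest to Gm16054 (0.97) and Chic2 (0.93), Jag2 to Pygl and Tcof1 (both 0.98), and Dll1 to Tesk1 (0.98) and Poglut2 (0.96). Of the targets, Nrarp was nearest to Mef2a (0.95) and Pex16 (0.94), and Hes1 to Spag7 (0.91) and Mapkapk2 (0.88). Hey1 and Heyl had counts in too few cells to be compared. With 9 points that share stage, plate and depth and so many candidates, high values of r arise readily, and they are given as descriptions.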

How the data were processed

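Reads were trimmed, aligned with STAR to mm39, quantified with Salmon 1.4.0 and summed per gene with tximport by the authors, who deposited estimated counts per gene and cell, without normalization. These were rounded to whole numbers (10.9% of nonzero values were not whole). Totals for CPM are sums over genes found in GENCODE vM39 of GRCm39 (93.3% of identifiers). Those genes hold 20.8% of all counts, and a single identifier outside the annotation, not used here, holds 65.5%, and 92 spike-ins were left out too. Cells with 2000 or more detected genes were summed per group (39 LOS, 38 MOS, 112 of 134 UOS, 125 of 156 OSalive and 92 of 141 OSapop cells among them), and 147 upper-middle cells had the 10000 counts needed for thinning. Ratios have exact binomial and levels exact Poisson 95% intervals, shares of cells Clopper-Pearson ones, and a group at 0 was set to 3 counts. Genes with 100 or more counts over both groups were compared, and 2-fold counts as different. With 1 sample per group no test was made. Depth ran from 24765 annotated counts per cell (median, plate 6) to 415779 (OSalive). All 10 members are named, from the pathway list the 2 highest and 2 lowest ratios per comparison, and the 2 genes most like each member, of which 1 is not reported here. Members and lists were chosen with earlier results of these data known. Alternatives changed scaling, weighting, filters, depth, cells and plates, of which 2 were chosen after seeing the data. Python 3.11.15, numpy 2.4.6, pandas 2.3.3, scipy 1.17.1, R 4.3.3 and edgeR 4.0.16 (TMM factors only) were used. The ratio step was tested on simulated data. The cell with conflicting stage labels and 1 CatVI cell with no column of counts entered no group.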

Additional observations from a re-analysis of the deposited data

Results flagged for a closer look

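By summed counts, Notch3 lay on opposite sides of the shared AnaVI upper-middle ORS in the 2 catagen stages. All 4 CatVI plates lay above that level and both CatVII sorts below it, and the log2 ratio of CatVI was 4.73 higher than that of CatVII. The difference was not tested, since each stage is 1 pool of mice. The side on which CatVII fell depended on the UOS cells with inner root sheath keratins, without which its ratio was 0.49 and that of CatVI 5.24.

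A cell titled OSapop whose labels name CatVI belonged to no group. It had 6 counts of Notch1 among 10456 annotated counts, or 573.8 CPM (210.6 to 1249), together with 3 counts each of Notch2 and Jag2 and 1 of Jag1, and none of the other members.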

How the results depend on the processing

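Of the counts of members past 2-fold under the alternatives, 150 stayed within 1.5 times the value given above and 24 did not. Of 761 ratios, 479 stayed within the counting interval and 56 had another sign, 6 of them past 2-fold before. Those 6 were Dll1 in CatVI without plate 1 (-0.29), Notch3 in MOS against UOS without cells with inner root sheath keratins (0.14), and Notch3 in CatVII with equal weight of cells (0.64), with thinned cells (0.26), without UOS (0.03) and without cells with inner root sheath keratins (0.49). Genes higher in LOS numbered 3 with TMM scaling and 3 without the inner root sheath cells, and 1 (Jag1) was lower at a limit of 1.5-fold. In MOS against UOS, 0 were higher without the top cell of each gene and 3 at 1.5-fold, and 1 was lower without the inner root sheath cells. In CatVI, 0 were lower with thinned cells, without UOS or without the inner root sheath cells, and 2 without plate 5. In CatVII, 2 were higher with thinned cells, without UOS or at 1.5-fold and 3 without the inner root sheath cells, and 1 was lower with equal weight of cells, without UOS, without OSalive or without the inner root sheath cells. In OSapop against OSalive, 3 were higher with all counts of genes as the total, 0 with equal weight, 2 with no minimum count and 3 at 1.5-fold, and 0 were lower with equal weight or thinned cells. The cause of these shifts was not tested. Notch3 in CatVI kept its sign and stayed past 2-fold in 18 of 18 alternatives other than those chosen after seeing the data, from 2.15 without plate 5 to 4.76 without UOS, and Notch1 in CatVI ran from 0.88 without plate 5 to 1.47 without the deepest cells in the same alternatives and was 1.85 without the inner root sheath cells. No paired analysis was possible because the groups are single pools and no result comes from a test. Depth limits Hey1, Heyl and, on plates 1, 2 and 6, Hes1, which rest on few counts.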

Other observations

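On plates 3 and 4, whose cells did not pass the filter, none of the 10 genes had a count in 872 and 2420 annotated counts over 67 and 57 cells. This allows levels of up to 4230 and 1524 CPM, so that these plates give no usable limit for the pathway.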
